A study of Homo sapiens with 15 samples.

Results

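The simple epithelial keratins described here are 6 genes, KRT8, KRT18, KRT19, KRT7, KRT23 and KRT80, picked by name out of 60557 genes listed in all count files; all 6 were found. They were read in the Caco-2 line, derived from a human colon tumour, whose cells grow into a sheet resembling the absorptive lining of the gut. The 3 groups of 5 libraries were unexposed Caco-2 monolayers (control) and monolayers kept for 24 h in a dishwasher rinse aid, a surfactant-based liquid, at 1:10000 or at 1:40000, so that the first dilution was 4 times as strong. No genotype or transgene is named for any group, all cells belong to a single tumour-derived line, and polyadenylated RNA was sequenced in bulk, so that fewer cells and less RNA per cell cannot be told apart. The labels do not say whether replicates were separate cultures, and p-values then measure only the spread between these libraries.

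Keratins are the intermediate filament proteins of epithelial cells. A filament is built from pairs of a type I and a type II keratin in equal amounts, and an unpaired keratin protein is degraded. KRT8 (type II) and KRT18 (type I) form the basic pair of single-layered epithelia such as the gut, where their filaments join desmosomes to the rest of the cytoskeleton and protect cells against mechanical and toxic stress. KRT19 is the short type I keratin that lacks most of the tail and also pairs with KRT8. KRT7 is the type II keratin of ducts and glands, usually scarce in colon, KRT23 is a type I keratin found in some colorectal tumours, and KRT80 is a type II keratin seen near cell borders and desmosomes.

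Totals ran from 4333226 to 14230853 counts in the control libraries, from 5489425 to 9555632 at 1:10000 and from 2551839 (replicate 2) to 172092447 (replicate 1) at 1:40000. The file headers name RNA STAR as aligner for the 5 control files and HISAT2 for the 10 rinse aid files, and the gene models differed too, with 60649 and 61544 genes listed. In the comparisons with control, the exposure thus cannot be told apart from these choices, and the first principal component, with 72.9% of the variance, separated the control libraries from the rest. The 1:10000 and 1:40000 libraries shared both and are compared first. The epithelial label was met by EPCAM, an adhesion molecule of epithelia, at 884 CPM in control, 872 at 1:10000 and 835 at 1:40000 (CPM, counts scaled to a common library size after correction for composition), and PTPRC, which marks leukocytes, had 0 counts in every library. The intestinal markers CDX1 and LGALS4 were near 0 in all groups. Of 8 intestinal epithelial markers 6 could be tested, and 5 of these were lower at 1:10000 than at 1:40000, as were 29.1% of all genes tested.

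KRT8, KRT18 and KRT19 have processed pseudogenes, copies of the messenger RNA pasted into the genome, and counts can move between a gene and its copies with the aligner. For KRT18, a stretch is printed beside that of its pseudogene with the most counts. It was chosen as the gap-free coding stretch with the fewest differences, at least 1. It thus shows the nearest part of the copy, not its typical likeness. The 120 bases come from the coding part of the parent transcript in GENCODE 29 and from the pseudogene, 5′ to 3′ on the gene's own strand, and capitals mark the base that differs.
KRT18: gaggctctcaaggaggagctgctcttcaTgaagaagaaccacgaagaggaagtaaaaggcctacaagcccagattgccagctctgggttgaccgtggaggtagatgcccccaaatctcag
KRT18P17: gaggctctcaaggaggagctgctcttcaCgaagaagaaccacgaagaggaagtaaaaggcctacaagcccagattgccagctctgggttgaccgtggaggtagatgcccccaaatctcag
The KRT18 stretch is bases 679 to 798 of transcript KRT18-202 and differs from KRT18P17 at 1 base. Over the whole copy, KRT8P36 (chr3:138101478-138102917, GRCh38), the KRT8 pseudogene with the most counts, was 92.1% identical to KRT8, with a longest identical run of 65 bases. KRT18P17 (chr3:12787393-12788671) was 93.1% identical to KRT18, with a longest identical run of 97 bases.

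The share of the transcript with an exact match in another gene, on either strand, differed between members. Of the 50-base windows of the transcript, 39.7% recurred in another gene for KRT8, 52.5% for KRT18 and 1.79% for KRT19. For KRT18, 326 of these windows were its overlap with KRT8 at the same place on the opposite strand. Its own pseudogenes held 35.1% of the KRT18 windows, against 39.7% for KRT8 and its pseudogenes. The share in another gene was 10.8% for KRT7, mostly in its antisense gene KRT7-AS. It was 4.95% for KRT23, in its overlapping antisense gene AC004231.1, and 0.42% for KRT80. KRT8 (chr12:52897187-52949954, minus strand) and KRT18 (chr12:52948871-52952901, plus strand) are neighbours whose annotated exons overlap over 525 bases on opposite strands. Of the 1420 bases of the KRT18 transcript, 375 (26.4%) lie in annotated KRT8 exons, against 20 bases of the 1755 of KRT8-205 in KRT18 exons. The strand setting of the counting is not given in the sources used here, so reads there could not be assigned with certainty.

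**Figure D1:**
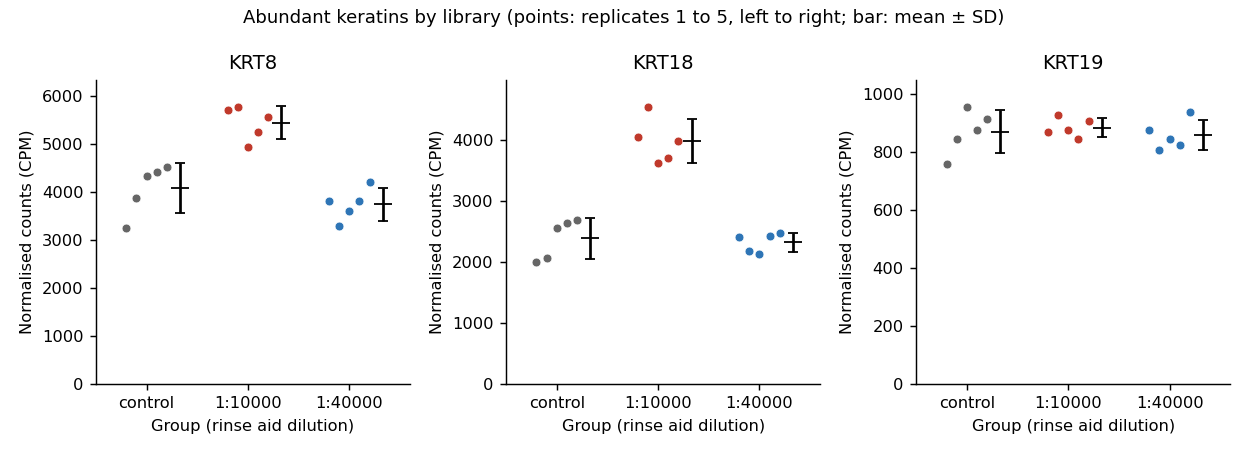
Normalised counts (CPM, y axis from 0) of KRT8, KRT18 and KRT19 in each of 5 libraries per group (x axis), with the mean ± SD beside the points. KRT8 and KRT18 at 1:10000 sit above every library of the other groups, while the KRT19 points of the 3 groups overlap.

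KRT8 and KRT18 were higher at 1:10000 than at 1:40000, KRT80 was higher from a very low level, and KRT19 did not pass the test. Of the 6 members, 4 met the count minimum of the edgeR quasi-likelihood fit over 13158 genes, KRT80 only through the 1:10000 libraries, where it was high, so that it is left out of the counts of calls. Of the other 3, 2 were called higher at a Benjamini-Hochberg adjusted p under 0.05 and none lower. Over all genes tested in this comparison 57.3% were called, 28.3% higher and 29.1% lower, so a call as such was common here.

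KRT8 stood at 5713, 5760, 4933, 5248 and 5566 CPM in replicates 1 to 5 at 1:10000 and at 3810, 3279, 3596, 3803 and 4198 CPM at 1:40000. Every library at 1:10000 was above every library at 1:40000. The fold was 1.46 (95% interval 1.31 to 1.62), a log2 fold change of 0.54 ± 0.08 (SE, adjusted p = 2.96e-06). That change was larger in size than the change of 69.9% of genes tested.

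KRT18, the partner of KRT8, stood at 4042, 4532, 3627, 3694 and 3986 CPM at 1:10000 and at 2408, 2173, 2125, 2415 and 2479 CPM at 1:40000. The lowest library at 1:10000 was again above the highest at 1:40000. KRT18 rose 1.71-fold (1.53 to 1.92), a log2 fold change of 0.78 ± 0.08 (adjusted p = 2.99e-08), more in size than 82.6% of genes tested.

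KRT19 (chr17:41523617-41528308, minus strand) stood at 871, 928, 875, 844 and 906 CPM at 1:10000 and at 878, 808, 845, 825 and 938 CPM at 1:40000. The groups overlapped along nearly their whole range. The log2 fold change was 0.04 ± 0.06 (adjusted p = 0.574), and its interval, from 0.949-fold to 1.12-fold, did not reach the fold of KRT8 or of KRT18. Its sign depended on the scaling, with a log2 fold change of -0.11 (adjusted p = 0.102) when library totals alone were used.

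Because a ratio of genes within a library does not depend on library scaling, the members were also set against each other. The log2 ratio of KRT19 to KRT18 counts was -2.16 ± 0.09 (SD, n = 5) at 1:10000 and -1.43 ± 0.08 (SD, n = 5) at 1:40000, linear ratios of 0.223 and 0.371. No library of one group reached the other (exact two-sided permutation test, p = 0.00794, the smallest that 5 against 5 libraries allow, and 0.0185 after adjustment over 21 such tests). KRT8 also lost ground to KRT18. Its counts were 1.37 ± 0.06 (SD, n = 5) times those of KRT18 at 1:10000 and 1.61 ± 0.08 times at 1:40000, again without overlap (exact permutation test, adjusted p = 0.0185). Per kilobase of transcript, the KRT8 level was 1.11 ± 0.05 times the KRT18 level at 1:10000, 1.30 ± 0.07 times at 1:40000 and 1.39 ± 0.08 times in control (SD, n = 5). Full transcript lengths were used, including the 375 KRT18 bases inside KRT8 exons. How reads there were counted was not tested, so these values do not settle which gene was higher.

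Summed over type II members (KRT8, KRT7, KRT80) and type I members (KRT18, KRT19, KRT23), the balance between the dilutions moved less. The type II to type I ratio of counts was 1.12 ± 0.05 (SD, n = 5) at 1:10000 and 1.18 ± 0.05 at 1:40000, with overlapping libraries (exact permutation test, adjusted p = 0.194). In control it was 1.25 ± 0.05 (SD, n = 5), above every 1:10000 library (exact permutation test, adjusted p = 0.0185) and overlapping 1:40000 (adjusted p = 0.1). These counts were not corrected for transcript length, so the ratios do not show which type was more abundant. Per kilobase, KRT8, KRT18 and KRT19 were at 3102, 2800 and 637 CPM at 1:10000. They were at 2129, 1634 and 618 at 1:40000 and at 2324, 1679 and 626 in control. All 6 members together took 0.954 ± 0.042% of counts (SD, n = 5) at 1:10000 and 0.711 ± 0.053% at 1:40000, without overlap (exact permutation test, adjusted p = 0.0185). KRT8, KRT18 and KRT19 gave nearly all of that share.

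**Figure D2:**
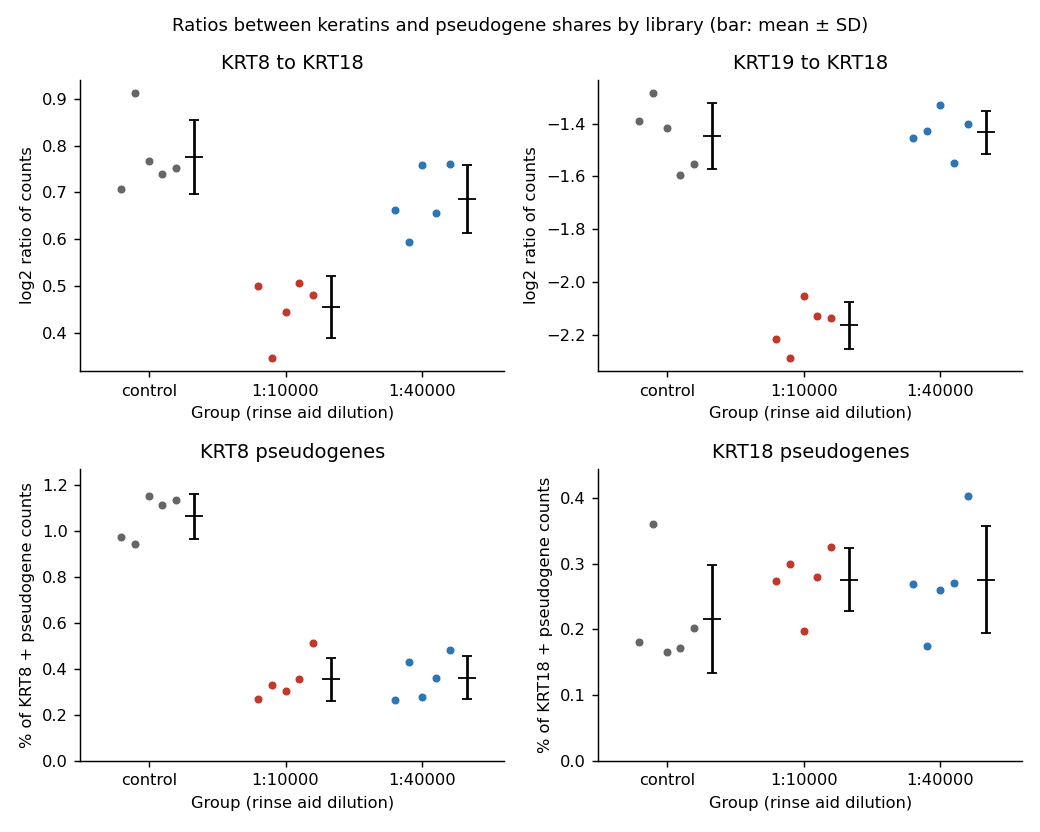
Log2 ratios of KRT8 to KRT18 and of KRT19 to KRT18 counts (upper row) and pseudogene counts as a percentage of parent plus pseudogene counts (lower row) in each library, with the mean ± SD. Both ratios are lowest at 1:10000, and the KRT8 pseudogene share separates the control libraries (0.944 to 1.15%) from the rinse aid libraries (0.263 to 0.51%).

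Pseudogene counts were small next to these differences. The files list 123 pseudogenes of the abundant members, 51 of KRT8, 67 of KRT18 and 5 of KRT19. KRT8 pseudogenes held 0.354 ± 0.093% (SD, n = 5) of parent plus pseudogene counts at 1:10000 and 0.362 ± 0.095% at 1:40000 (exact permutation test, adjusted p = 0.942). KRT18 pseudogenes held 0.276% in both groups, and KRT19 pseudogenes 0.0206% and 0.0275%. With pseudogene counts added to the parent, the log2 fold changes of 1:10000 against 1:40000 were 0.54 for KRT8 and 0.78 for KRT18, as without them. Shares this small could hardly move these values. How reads that match both a gene and a copy were counted was not tested.

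**Figure D3:**
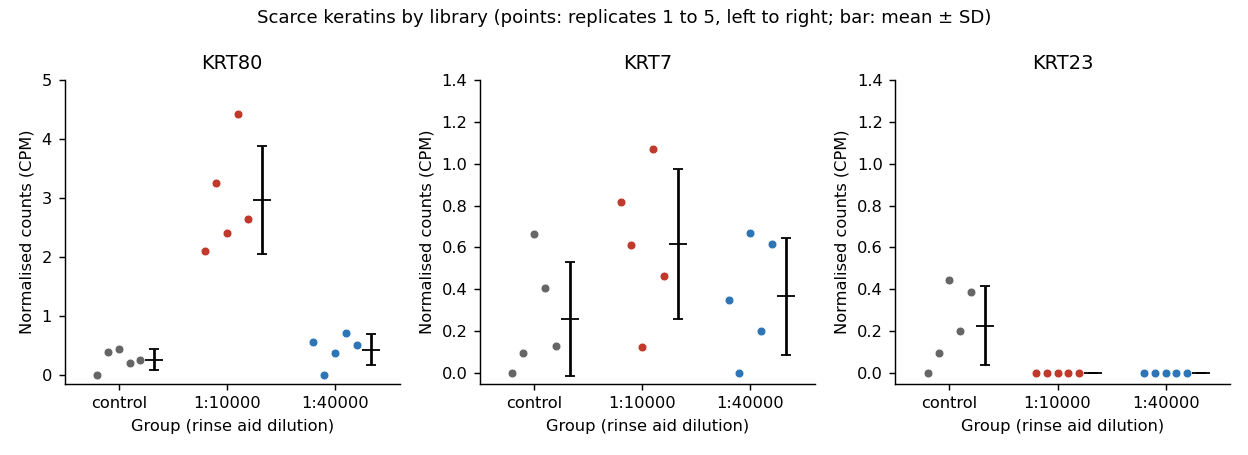
Normalised counts (CPM) of KRT80, KRT7 and KRT23 in each library, with the mean ± SD per group; the y axis of KRT80 is longer. KRT80 at 1:10000 (2.11 to 4.42 CPM) lies above every other library, KRT7 overlaps in all groups, and KRT23 is at 0 in every rinse aid library.

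KRT80 (chr12:52168996-52192000, minus strand) was scarce in every group. It had 18, 16, 19, 29 and 17 counts at 1:10000, or 2.11, 3.26, 2.40, 4.42 and 2.64 CPM, and 98, 0, 10, 7 and 5 counts at 1:40000, where replicate 1 was sequenced most deeply and reached 0.565 CPM. The lowest library at 1:10000 was above the highest at 1:40000 (0.705 CPM). The fitted fold was 5.72 (3.69 to 8.87), given as a description because the filter selected KRT80 through the higher group. In a fit without any filter, over 30980 genes with a count, KRT80 had a log2 fold change of 2.45 ± 0.36 (edgeR, adjusted p = 3.01e-07). Its copies elsewhere are short, with no 75-base window found in another gene. However, 16 of its 50-base windows recurred in KRT8, the most abundant member, and in KRT8P3. Whether KRT8 reads added to the KRT80 counts was not tested.

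KRT7 (chr12:52232520-52252186, plus strand) and KRT23 (chr17:40922696-40937634, minus strand) did not reach the minimum count for testing across all genes. KRT7 had 7, 3, 1, 7 and 3 counts at 1:10000 and 61, 0, 18, 2 and 6 counts at 1:40000. Its level was 0.618 ± 0.356 CPM (SD, n = 5) and 0.367 ± 0.280 CPM (exact permutation test, adjusted p = 0.327 over 5 tests of the scarce members), a difference not detectable at this depth. KRT23 had 0 counts in all 10 rinse aid libraries. Over the group and by library totals alone, 3 counts would be 0.0809 CPM at 1:10000 and 0.0137 CPM at 1:40000. These limits cover counting error only.

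Against control, KRT8, KRT18 and KRT80 were likewise higher at 1:10000, while none of the 6 was called at 1:40000. At 1:10000 against control 71.0% of genes tested were called, 34.8% higher and 36.2% lower, and of KRT8, KRT18 and KRT19, 2 were called higher and none lower. At 1:40000 against control 52.1% were called, 26.1% higher and 26.0% lower, and 0 of the 4 members tested passed edgeR's test, 0 also at an unadjusted p under 0.05 and 0 with DESeq2. These comparisons share the control libraries and cross the change of aligner.

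KRT8 stood at 3253, 3874, 4336, 4414 and 4516 CPM in control replicates 1 to 5. All of these were below the lowest 1:10000 library, and they overlapped the 1:40000 libraries. KRT8 was 1.33-fold higher at 1:10000 (1.20 to 1.49), a log2 fold change of 0.42 ± 0.08 (adjusted p = 5.2e-05), and differed by -0.13 ± 0.08 on the log2 scale at 1:40000 (adjusted p = 0.188). Without control replicate 1, the lowest for KRT8, the latter value was -0.20 (adjusted p = 0.0212), past the threshold.

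KRT18 stood at 1991, 2059, 2550, 2643 and 2681 CPM in control. The 1:10000 libraries were all above these, and the 1:40000 libraries lay within their range. The fold at 1:10000 was 1.67 (1.49 to 1.86), a log2 fold change of 0.74 ± 0.08 (adjusted p = 2.58e-08), and at 1:40000 the log2 fold change was -0.04 ± 0.08 (adjusted p = 0.713). The interval of the latter, 0.870-fold to 1.09-fold, did not reach the 1.67-fold seen at 1:10000.

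KRT19 stood at 760, 845, 955, 876 and 915 CPM in control, a range that held every rinse aid library. The log2 fold change was 0.02 ± 0.06 at 1:10000 (adjusted p = 0.737) and -0.02 ± 0.06 at 1:40000 (adjusted p = 0.821). With library totals as the scaling, which moved the median of all genes by -0.17 at 1:10000, KRT19 was lower than control by -0.15 (adjusted p = 0.0231). The KRT19 to KRT18 log2 ratio, free of that choice, was -1.45 ± 0.13 (SD, n = 5) in control, 0.01 below the value at 1:40000 (exact permutation test, adjusted p = 0.942) and above every 1:10000 library (adjusted p = 0.0185).

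KRT80 had 0, 4, 2, 3 and 2 counts in control, 0.260 ± 0.175 CPM (SD, n = 5). All control libraries were below all 1:10000 libraries, and the fitted fold was 11.0 (6.20 to 19.4), again a description. Without a filter the log2 fold change at 1:10000 was 3.46 ± 0.45 (edgeR, adjusted p = 6.9e-09). At 1:40000 the fold was 1.92 (0.993 to 3.70, adjusted p = 0.107). KRT23 had 0, 1, 2, 3 and 3 counts in control. Against 3 counts over a rinse aid group, its pooled control level was 2.74-fold higher at 1:10000 and 16.2-fold higher at 1:40000. The latter was 3.33-fold without the deepest and the shallowest 1:40000 library. These folds leave out the counting error of the 9 control counts, so they are not lower limits. With counting error, the control level was 0.101 to 0.421 CPM by library totals alone. The upper limits on that scale were 0.0994 at 1:10000, just below the control interval, and 0.0168 at 1:40000. Over libraries the difference of KRT23 from control had p = 0.0476 and an adjusted p = 0.119 at either dilution (exact two-sided permutation test). KRT7 had 0, 1, 3, 6 and 1 counts in control (0.260 ± 0.273 CPM, SD, n = 5; adjusted p = 0.198 at 1:10000 and 0.54 at 1:40000, exact permutation test).

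**Figure D4:**
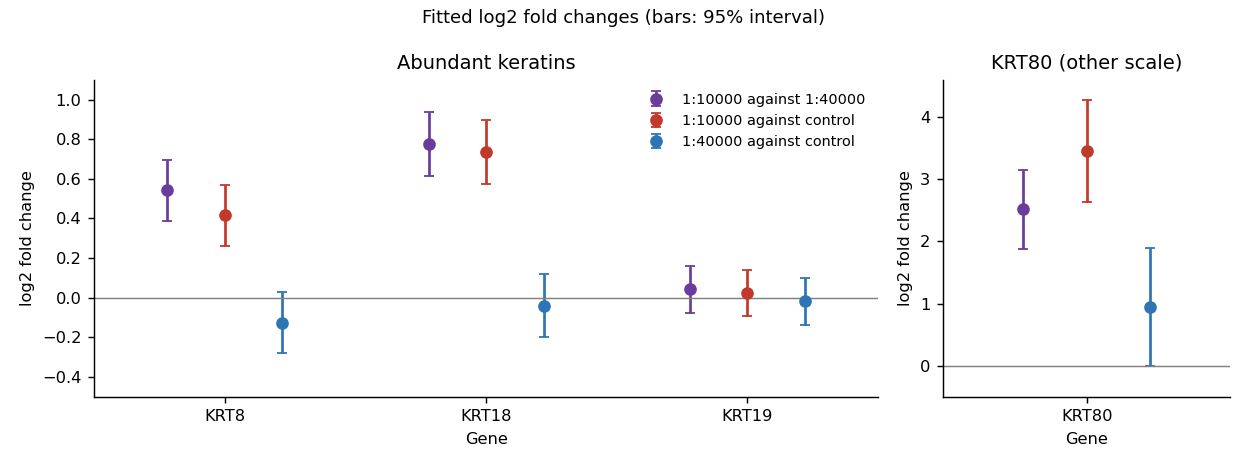
Fitted log2 fold changes (y axis) of KRT8, KRT18, KRT19 and, on its own scale, KRT80 in the 3 comparisons; bars are 95% intervals from the SE. KRT8, KRT18 and KRT80 lie above 0 in both comparisons of 1:10000, and KRT19 lies at 0.04, 0.02 and -0.02.

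Pseudogene counts did differ between the control and rinse aid files. KRT8P36, the KRT8 pseudogene with the most counts and picked after its values were seen, had 118, 265, 179, 570 and 293 counts in control, 0, 1, 2, 3 and 6 at 1:10000 and 26, 1, 5, 1 and 3 at 1:40000. It gave 1425 of the 1894 KRT8 pseudogene counts in control. KRT8 pseudogenes held 1.06 ± 0.10% (SD, n = 5) of parent plus pseudogene counts in control, above every rinse aid library (exact permutation test, adjusted p = 0.0185 at either dilution), and 0.266% once KRT8P36 was left out.

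KRT18P17, the KRT18 pseudogene with the most counts and likewise picked after its values were seen, went the other way. It had 1, 4, 1, 1 and 0 counts in control, 44, 30, 32, 31 and 32 at 1:10000 and 493, 2, 63, 25 and 35 at 1:40000. Whether the aligner moved these counts was not tested. The gene model of KRT8 also changed version between the files (12 in control, 13 with rinse aid), as did that of KRT7 (16 and 17). Adding pseudogene counts to the parents left the 1:10000 against control log2 fold changes at 0.41 for KRT8 and 0.74 for KRT18. The added counts were too few to move these values by much.

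Other keratins were nearly all scarce. Of 34 further keratin genes, 8 had 0 counts in every library and 7 could be tested. KRT17, KRT81 and KRT86 met the count minimum only through the 1:10000 libraries, where they are high, and are left out of the counts for 1:10000. Of the other 4 (KRT4, KRT10, KRT15 and KRT71), 2 were higher and 1 lower at 1:10000 than at 1:40000, where 28.3% and 29.1% of all genes were, and 1 and 1 against control, where 34.8% and 36.2% were. Their median log2 fold change was 0.75 and 0.01, beside -0.01 and -0.02 over all genes tested. At 1:40000 against control, 1 of the 7 was higher and 2 lower, beside 26.1% and 26.0% of all genes (median -0.58 beside 0.00).

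KRT10, the type I keratin of differentiating epidermis and the most abundant of them, was at 16.9 ± 2.3 CPM (SD, n = 5) at 1:10000, 9.05 ± 1.74 at 1:40000 and 14.1 ± 0.9 in control. It was higher at 1:10000 than at 1:40000 (log2 fold change 0.94 ± 0.14, adjusted p = 3.25e-06) and lower at 1:40000 than in control (-0.68 ± 0.14, adjusted p = 0.000238). The remaining keratins named here had lower means and were picked after their values were seen. KRT17, a type I keratin induced in wounded skin, was at 6.53 CPM at 1:10000, 1.14 at 1:40000 and 0.704 in control. KRT15, a type I keratin of basal cells, was at 5.15, 1.35 and 2.40 CPM in the same order (1.66 ± 0.23, adjusted p = 1.39e-06). KRT4, the type II keratin of mucosal squamous epithelium, went down, with 1.48 CPM at 1:10000, 2.63 at 1:40000 and 4.08 in control (-0.80 ± 0.25, adjusted p = 0.00736).

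The hair keratins KRT81 and KRT86, type II genes of a cluster of close copies whose counts are uncertain for that reason, were almost absent outside 1:10000. KRT81 summed to 101 counts at 1:10000, 61 at 1:40000 and 1 in control over 5 libraries each, and KRT86 to 81, 74 and 4. In CPM, KRT81 was at 3.12 ± 1.26 (SD, n = 5) at 1:10000 and 0.241 ± 0.105 at 1:40000, and KRT86 at 2.43 ± 0.78 and 0.186 ± 0.197. These values are a description, since the filter took both genes in through 1:10000. With library totals alone as the scaling, the squamous markers KRT5, KRT14, TP63, DSG3 and IVL together never passed 0.211 CPM in any library. KRT20, the type I keratin that marks intestinal epithelium and also picked after its values were seen, had 5 counts over the control libraries and 0 over all rinse aid libraries.

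**Figure D5:**
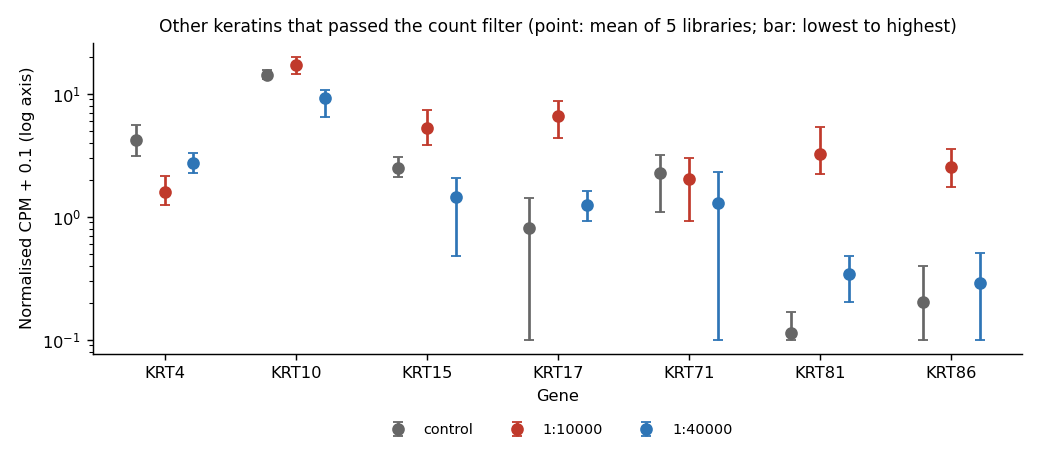
Mean normalised counts of the 7 other keratins that could be tested (log axis, CPM plus 0.1), with bars from the lowest to the highest of 5 libraries per group. KRT17, KRT81 and KRT86 at 1:10000 lie above every library of the other groups, whereas KRT4 is lowest there.

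Proteins that anchor or bind keratin filaments went in both directions. Of 20 listed, 16 were tested; 6 were higher and 5 lower at 1:10000 than at 1:40000 (median log2 fold change 0.05), 4 and 8 against control (-0.18), and 4 and 5 at 1:40000 against control (-0.15). The called shares of 68.8%, 75% and 56.2% stand beside 57.3%, 71.0% and 52.1% of all genes. PLEC, the plectin that cross-links keratins to hemidesmosomes and actin, rose from 213 ± 25 CPM (SD, n = 5) at 1:40000 to 296 ± 19 at 1:10000 (log2 fold change 0.47 ± 0.08, adjusted p = 1.1e-05) and was at 153 ± 14 in control. EPPK1, the epiplakin that binds keratin bundles, fell to 15.7 CPM at 1:10000 from 28.6 at 1:40000 (-0.88 ± 0.10, adjusted p = 9.21e-08). MACF1, a spectraplakin that links actin and microtubules, was also lower (52.9 and 69.2 CPM; -0.41 ± 0.09, adjusted p = 0.000352).

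Among the desmosomal members of that list, DSC2, a desmosomal cadherin, was at 54.0 CPM at 1:10000 and 41.7 at 1:40000 (0.39 ± 0.09, adjusted p = 0.000736). DSG2, the other desmosomal cadherin of simple epithelia, was at 170 and 158 CPM with rinse aid and 105 in control (1:10000 against control 0.69 ± 0.06, adjusted p = 5.75e-10; 1:40000 against control 0.59 ± 0.06, adjusted p = 2.83e-08). PPL, the periplakin of the desmosomal plaque, was higher at 1:10000 than in control (245 and 169 CPM; 0.54 ± 0.07, adjusted p = 1.21e-07). TCHP, a keratin-binding protein also known as trichoplein, was lower at 1:40000 than in control (12.8 and 17.4 CPM; -0.45 ± 0.11, adjusted p = 0.00108). The remaining desmosomal plaque genes, added after their values were seen, went both ways. DSP, the desmoplakin that ties keratins to the desmosome, was at 681 ± 47 CPM (SD, n = 5) at 1:10000, 785 ± 75 at 1:40000 and 832 ± 66 in control (1:10000 against 1:40000 -0.21 ± 0.07, adjusted p = 0.0126; 1:10000 against control -0.29 ± 0.07, adjusted p = 0.000563). PKP3, a plakophilin, was lower at 1:10000 than at 1:40000 (-0.23 ± 0.08, adjusted p = 0.0117). PKP2, another plakophilin, was lower at 1:10000 than in control (-0.19 ± 0.06, adjusted p = 0.00503) and higher than at 1:40000 (0.14 ± 0.06, adjusted p = 0.0347). JUP, the plakoglobin, was higher at 1:10000 than at 1:40000 (0.22 ± 0.06, adjusted p = 0.00218).

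Intermediate filament genes outside the keratins went in both directions. Of 13 listed, 7 were tested; 2 were higher and 4 lower at 1:10000 than at 1:40000 (median log2 fold change -0.46), 2 and 5 against control (-0.53), and 2 and 4 at 1:40000 against control (-0.23). These compare with 28.3% higher and 29.1% lower, 34.8% and 36.2%, and 26.1% and 26.0% over all genes. The nuclear lamins LMNB1 and LMNB2 were at 137 and 155 CPM at 1:10000, 230 and 211 at 1:40000 and 316 and 271 in control. Between the dilutions LMNB1 fell by 0.75 ± 0.08 (adjusted p = 1.93e-08) and LMNB2 fell by 0.46 ± 0.07 (adjusted p = 8e-06) on the log2 scale. LMNA, which encodes the A-type lamins, was at 155 CPM at either dilution and 180 in control.

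SYNM, the synemin that co-assembles with other filaments, fell by 0.82 ± 0.15 (adjusted p = 5.28e-05) between the dilutions, and NES, the nestin of progenitor cells, fell by 0.71 ± 0.08 (adjusted p = 1.42e-07). PRPH, the peripherin of neurons, was at 9.43 CPM at 1:10000, 6.92 at 1:40000 and 2.56 in control (1:10000 against control 1.83 ± 0.17, adjusted p = 7.77e-10). VIM, the vimentin of mesenchymal cells, named after its values were seen, was at 3.71 ± 0.76 CPM (SD, n = 5) at 1:10000, 1.28 ± 0.44 at 1:40000 and 0.513 ± 0.418 in control. It was higher at 1:10000 than at 1:40000 (1.54 ± 0.29, adjusted p = 7.3e-05) and higher than in control at either dilution (2.82 ± 0.36, adjusted p = 1.77e-07, and 1.28 ± 0.39, adjusted p = 0.00709). In the comparison of the dilutions, the keratin pair KRT8 and KRT18 and the B-type lamins had calls of opposite sign.

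Markers of cell identity moved as well, and those named were picked after their values were seen. CDX2, a homeobox factor of intestinal identity, was at 63.0 ± 7.2 CPM (SD, n = 5) at 1:10000, 192 ± 10 at 1:40000 and 172 ± 16 in control. HNF4A, a nuclear receptor of enterocytes and hepatocytes, was at 217, 440 and 572 CPM. The summed level of the 8 intestinal markers, in CPM scaled by library totals alone, ran from 3170 to 3300 at 1:10000. It ran from 4600 to 4710 at 1:40000 and from 4680 to 5080 in control. The correction factors for composition were 0.896 to 0.954 at 1:10000 and 1.011 to 1.06 in the other libraries. These sums thus lie lower at 1:10000, and higher elsewhere, than sums of corrected CPM would. Of 7 fibroblast markers 5 were tested, LUM only through the 1:40000 libraries, where it was highest. Of the other 4, 2 were lower at 1:10000 than at 1:40000 and none higher, beside 29.1% and 28.3% of all genes. The summed levels of the list, again by library totals alone, were 79.8 to 104 at 1:10000, 145 to 164 at 1:40000 and 185 to 201 in control. DCN had 0 counts in control and at 1:10000, whereas COL1A1, PDGFRA, PDGFRB and COL3A1 were at 92.2, 46.6, 27.0 and 18.1 CPM in control. LUM and COL1A2 were at 1.15 and 0.0444 CPM there. Of the leukocyte and endothelial lists 1 gene each could be tested, LYZ and PECAM1, and both were lower at 1:10000 than at 1:40000. The part of these shifts in the keratin values was not tested.

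The genes whose profile over the 15 libraries was most like that of each tested member were found by the root mean square difference of centred log2 CPM among 11647 protein-coding genes. For KRT8 these were ACTB, the cytoplasmic actin (0.068), EZR, the ezrin that ties microvilli to the membrane (0.094), and ANXA2, a membrane-binding annexin (0.095), against a median of 0.399 over genes. ACTB was at 7055 CPM at 1:10000, 5127 at 1:40000 and 5360 in control. For KRT18 they were H3-3B, a replacement histone (0.104), CYTH3, an ARF exchange factor (0.112), and MYL12B, a myosin light chain (0.114), against a median of 0.483.

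For KRT19 the nearest profiles were the nearly level ones of PSMF1, TMUB1 and TBL3 (0.063, 0.066 and 0.067). For KRT80 they were LHFPL6, RIPOR2 and MAP1B (0.627, 0.716 and 0.719), larger distances than those of the abundant members. Such a distance grows with the member's own variation. The root mean square of the member's centred values was 0.268 for KRT8, 0.383 for KRT18, 0.085 for KRT19 and 1.66 for KRT80. The distances thus do not rank the members by closeness of match. LHFPL6 was at 4.35 CPM at 1:10000, 0.508 at 1:40000 and 0.331 in control.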

How the data were processed

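For each of 15 Caco-2 libraries the authors deposited a file of unnormalised counts by Ensembl gene. Per the submitters' processing notes, cutadapt, STAR 2.7.9a, featureCounts and DESeq2 1.32.0 were used with GRCh38, without roles or order; per the file headers, control files came from RNA STAR and rinse aid files from HISAT2. Annotation release and strand setting are not given in the sources used here. Per the labels' protocols, RNA came from the RNeasy Plus Micro Kit and libraries from the TruSeq RNA Kit.

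Genes were joined by identifier without version (60557 shared, holding at least 99.977% of each library's counts). Lengths, coordinates, pseudogenes and transcript sequences came from GENCODE 29 on GRCh38, which held 58298 of them. The fit used R 4.3.3 and edgeR 4.0.16 with TMM scaling. Low counts were removed by filterByExpr on the groups, leaving 13158 genes, and a model of 3 group means was tested by robust quasi-likelihood, with Benjamini-Hochberg adjustment within each of 3 comparisons and calls at an adjusted p under 0.05. The SE was approximated from the log2 fold change and its F statistic, and 95% intervals follow from it on the normal scale. Ratios and shares per library, and the scarce members, were compared by exact two-sided permutation over 252 splits (scipy 1.17.1). Profiles used log2 CPM with a prior count of 2. Folds against a group at 0 were taken against 3 counts over the group, without the counting error of the other group. The fit was tested on simulated data.

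The members and lists were chosen with earlier results of these data known. Named genes were all members, up to 4 called genes per list and comparison with a mean of at least 5 CPM, and the 3 nearest profiles of each tested member; others are marked, and the cell type markers named were picked after their values were seen. A sequence shared by KRT8 and its copies is not reported here. Replicate numbers were checked, showed a weak likeness between some libraries and were left out of the main fit. Replicates of a group differed by more than sampling noise (lowest chi-square per degree of freedom 1.73). Alternatives were other scalings, no filter, DESeq2 1.42.0, a replicate block, only the 2 groups compared, each library left out, the deepest and shallowest 1:40000 libraries left out, and pseudogene counts added to parents.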

Additional observations from a re-analysis of the deposited data

Results flagged for a closer look

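The log2 ratio of KRT8 to KRT18 counts in control replicate 2 was 0.912, the highest of the 5 control libraries, and its gap to the next library was 0.715 of the group's range, past the critical value of Dixon's test for 5 values, 0.71. The KRT18 pseudogene share of the same library was 0.36%, also the highest of its group, with a gap of 0.811 of the range. Of 39 sets of 5 libraries examined, these were the 2 that passed, and chance alone gives about 1 in 20.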

How the results depend on the processing

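At 1:10000, every alternative run kept the direction and call of KRT8 and KRT18. Against 1:40000 their log2 fold changes were 0.39 to 0.59 and 0.63 to 0.81, and against control 0.25 to 0.45 and 0.57 to 0.78. KRT80 ran from 2.33 to 2.65 and from 3.26 to 3.70. These KRT80 ranges are a description, since nearly all runs kept the filter that took KRT80 in through 1:10000. Signs changed for values near 0. KRT19 in 1:10000 against 1:40000 was -0.005 with upper-quartile scaling, -0.108 with library totals and -0.026 without a filter, and in 1:10000 against control it was -0.145 with library totals and -0.022 to 0.058 with single libraries left out. In 1:40000 against control, KRT19 was 0.033 with upper-quartile scaling, 0.058 without a filter, 0.003 without the deepest and shallowest 1:40000 libraries and -0.065 to 0.015 with single libraries left out, and KRT18 was 0.012, 0.037 and -0.1 to 0.019 under the first, second and last of these. In 1:10000 against control, a further member was called without a filter (KRT23) and with library totals (KRT19). The members called in 1:40000 against control went from 0 to 1 without a filter (KRT23, whose fit has no counts on the rinse aid side) and ranged from 0 to 1 with single libraries left out (KRT8, without control replicate 1). Library totals moved the median of all genes by -0.148 between the dilutions and -0.168 at 1:10000 against control, and the share of calls that were higher from 49.3% to 32.1% and from 49.0% to 37.2%.

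Without the deepest and shallowest 1:40000 libraries, differences between the dilutions were 0.222 percentage points in the summed share, -0.269 in the log2 KRT8 to KRT18 ratio and -0.737 in the log2 KRT19 to KRT18 ratio, and 1:40000 differed from control by -0.689 points in KRT8 pseudogene share; each had an adjusted p of 0.075, where 5 against 3 libraries allow no raw p below 0.0357. KRT18 and KRT19 pseudogene shares then differed between the dilutions by -0.0355 and 0.00183 points. The log2 type II to type I ratio of 1:40000 against control passed the threshold with pseudogenes added (-0.104, adjusted p = 0.0476) and ranged from -0.113 to -0.0693 with single libraries left out, past it without control replicate 1. With single libraries left out, the log2 KRT19 to KRT18 ratio of 1:40000 against control ran from -0.0226 to 0.0547 and the KRT19 pseudogene share from -0.0135 to 0.0027 points, and between the dilutions the KRT8 and KRT18 pseudogene shares ran from -0.0471 to 0.0216 and from -0.0249 to 0.0321 points.

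The replicate block gave log2 fold changes of 0.547 for KRT8, 0.78 for KRT18, 0.042 for KRT19 and 2.378 for KRT80 between the dilutions, changed no member's call and called 8011, 9593 and 7314 genes in the 3 comparisons against 7543, 9344 and 6859. Likeness by replicate number was weak but not absent. Deviations of same-numbered libraries correlated at -0.05 to 0.281, 7 of 15 over 0.1, and 7 of 15 matched best with their own number. Between the dilutions these correlations were all positive, from 0.046 to 0.281, and between control and 1:10000 they ran from -0.05 to 0.058. Whether the numbers mark a shared batch was not tested. Depth limits KRT7, KRT23 and KRT80, for which 3 counts are 1.18 CPM by library totals alone in the shallowest library.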
